A study of Mus musculus with 24 samples.

Results

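Neutrophil primary granule genes and the myeloid regulators around them were followed in mouse fetal liver cells in which a microRNA, miR-125b, had been introduced. A list of 10 names, with no threshold on a measured value, set the members: Mpo, Elane, Prtn3, Ctsg, Ms4a3, Cebpa, Cebpb, Cebpe, Gfi1 and Csf1r. They were found by gene symbol among the 47069 gene identifiers of the deposited count table, and all 10 were present. The cells came from embryos at E12.5 to E13.5 (days after conception) of a B6J.129 strain whose Rosa26 locus (Gt(ROSA)26Sor) carries Cas9 and EGFP, a green fluorescent protein, behind the CAG promoter, which is active in most cells. All 8 groups carried a guide RNA against Gata1 (sgGata1), and the labels call the cells Gata1s, after the short form of the factor. A second transgene was either miR-125b or its control. Both arms were sampled at day 2, after 48 h of doxycycline at 1 µg/mL, and at day 10, labelled with the same dose. At day 13 there were 2 groups. One was labelled as kept in doxycycline at 1 µg/mL and the other as withdrawn from it on day 10. Each group held 3 libraries, with 14694900 to 23755245 counts per library. Nothing in the labels says that the 3 came from separate embryos or cultures, or how the cells were cloned or sorted, so the p-values measure the spread between these libraries only.

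Primary (azurophil) granules are made by promyelocytes, the stage at which neutrophils and monocytes are still closely related. Their contents include myeloperoxidase (Mpo), an enzyme that makes hypochlorous acid, and a family of serine proteases: neutrophil elastase (Elane), proteinase 3 (Prtn3) and cathepsin G (Ctsg). C/EBP-alpha (Cebpa) directs progenitors to the granulocyte-monocyte fate, C/EBP-beta (Cebpb) acts in monocytes and emergency granulopoiesis, C/EBP-epsilon (Cebpe) is needed for the later, secondary granules, and Gfi1 is a repressor needed for neutrophils. Ms4a3 is a membrane protein of granulocyte-monocyte progenitors, and Csf1r is the receptor that monocytes and macrophages need for growth.

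The sequence introduced into the cells and the start regions of the 4 granule enzymes are shown first, because the results turn on those enzymes. The mature microRNA is printed with its seed, bases 2 to 8, in capitals. The target match to that seed is CTCAGGG, and it was absent from the longest annotated 3′ untranslated region of all 10 genes, which ranged from 78 to 1669 bases. Among 21123 genes, 14.1% held at least 1 such match, and Arid3a, the target named in the series' title, held 6 in 3082 bases.
mmu-miR-125b-5p: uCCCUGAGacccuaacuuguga

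RefSeq start regions on GRCm38.p6, reaching 250 bases before to 50 bases after the gene start, were found for 8 of the 10 genes. Capitals mark the matches, on either strand, to 6 motifs: GAGGAA (a PU.1 core), TTGCNNAA (C/EBP), TGTGGT (RUNX), CAACNG and TAACNG (MYB) and AGATAA (the site of GATA factors). Of 32851 start regions of 300 bases, 28.3% held GAGGAA, 10.8% TTGCNNAA, 16.8% TGTGGT, 35.0% CAACNG, 23.3% TAACNG and 11.2% AGATAA, so that each is common. RefSeq and GENCODE, from which the gene positions below are taken, put the start at the same base for Ctsg, Ms4a3, Cebpa and Cebpb. The RefSeq start lies 65 bases downstream for Elane, 203 for Mpo and 5.19 kb for Prtn3, whose printed region is therefore inside the GENCODE gene.
Mpo, chr11:87793534-87793833, plus strand: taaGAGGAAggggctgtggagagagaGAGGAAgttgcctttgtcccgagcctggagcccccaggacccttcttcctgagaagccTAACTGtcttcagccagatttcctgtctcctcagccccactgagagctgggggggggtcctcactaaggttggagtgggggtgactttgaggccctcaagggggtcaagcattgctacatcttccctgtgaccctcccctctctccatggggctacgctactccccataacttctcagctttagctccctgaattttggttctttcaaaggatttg
Ctsg, chr14:56102525-56102824, minus strand: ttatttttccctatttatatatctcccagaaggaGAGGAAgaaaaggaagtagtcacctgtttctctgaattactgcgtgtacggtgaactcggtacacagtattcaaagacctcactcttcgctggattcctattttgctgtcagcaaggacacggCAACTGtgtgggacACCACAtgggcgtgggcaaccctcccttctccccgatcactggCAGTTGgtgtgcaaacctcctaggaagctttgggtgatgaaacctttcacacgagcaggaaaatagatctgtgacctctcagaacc
Prtn3, chr10:79879417-79879716, plus strand: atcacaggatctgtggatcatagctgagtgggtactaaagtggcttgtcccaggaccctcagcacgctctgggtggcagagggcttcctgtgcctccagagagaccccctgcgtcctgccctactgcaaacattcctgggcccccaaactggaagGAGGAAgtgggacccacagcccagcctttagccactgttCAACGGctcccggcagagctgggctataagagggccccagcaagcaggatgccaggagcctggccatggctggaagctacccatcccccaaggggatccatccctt
Elane, chr10:79886062-79886361, plus strand: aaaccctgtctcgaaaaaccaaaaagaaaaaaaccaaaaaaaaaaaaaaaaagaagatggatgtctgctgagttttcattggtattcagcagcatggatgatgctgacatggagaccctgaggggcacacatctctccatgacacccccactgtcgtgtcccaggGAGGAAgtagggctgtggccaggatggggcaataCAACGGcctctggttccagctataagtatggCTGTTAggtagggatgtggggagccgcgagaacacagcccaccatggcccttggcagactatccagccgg

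All 4 enzyme start regions held GAGGAA, 2 times in Mpo and 1 time in each of Ctsg, Prtn3 and Elane. CAACNG was found 2 times in Ctsg and 1 time in each of Prtn3 and Elane, and TAACNG 1 time in each of Mpo and Elane. The Ctsg region also held 1 TGTGGT, and none of the 4 held TTGCNNAA or AGATAA. The Ms4a3 region held 1 GAGGAA and 1 TTGCNNAA. Cebpa and Cebpb each held 1 CAACNG, and 1 of the 2 Gfi1 regions held TTGCNNAA. These matches are letters in a window and describe neither binding nor a cause.

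Libraries held 16532 to 17937 genes with at least 1 count, and 13419 genes passed the filter on low counts. Gata1, the gene the guide is directed against, ranged from 194 to 514 CPM (counts scaled to a common library total, after TMM) and overlapped between the arms in all 4 comparisons; a count per gene does not show whether the short form is made. Arid3a, a check of the microRNA arm, was lower with miR-125b at day 2 (34.1 ± 6.56 against 59.7 ± 8.15 CPM, SD, n = 3) and at day 10 (31.8 ± 1.70 against 58.5 ± 11 CPM). At day 13 it was low in the miR-125b libraries labelled as withdrawn (31.2 ± 4.45 against 69.5 ± 6.20 CPM) and overlapped with the control in those labelled as continued (52.2 ± 6.15 against 61.0 ± 11.2 CPM). A microRNA that depends on doxycycline would give the opposite order, so this check goes against the day 13 labels, and every day 13 value is given for libraries "labelled continued" or "labelled withdrawal". Among the 8 hepatocyte and stromal markers, Alb, Ttr and Apoa1 had at most 3 counts in any library. Others of that list were present, with 25 to 82 counts per library for Afp and 37 to 1014 for Pdgfrb. The 14 megakaryocyte markers together took 2890 to 7850 CPM.

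Mpo, the peroxidase, showed the largest difference between the arms among the tested members at day 10 and both day 13 samplings, and the only one that passed the test without the replicate block. It lies on chromosome 11 at 87793581 to 87804413 of GRCm38, plus strand. At day 2 the control libraries (replicates 1, 2 and 3) held 48, 15 and 8 Mpo counts and the miR-125b libraries 137, 44 and 16. At day 10 the control held 18, 1 and 11 counts against 412, 267 and 251 with miR-125b. At day 13 labelled continued the counts were 8, 1 and 5 against 213, 225 and 128, and at day 13 labelled withdrawal 5, 1 and 3 against 321, 488 and 245. The arms overlapped at day 2 and were wholly apart at the 3 later samplings, with control replicate 2 at a single count each time.

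On the scale of CPM, Mpo was 17.8 ± 7.37 with miR-125b and 0.508 ± 0.418 in the control at day 10. The log2 fold change from edgeR's quasi-likelihood test was 5.10 ± 0.85 (SE), with a Benjamini-Hochberg adjusted p of 0.015. For day 13 labelled withdrawal the means were 19.6 ± 7.94 and 0.165 ± 0.139 CPM, and edgeR gave a log2 fold change of 6.93 ± 0.97 (adjusted p = 0.00435). The libraries of day 13 labelled continued averaged 9.95 ± 2.76 and 0.241 ± 0.164 CPM, and the edgeR log2 fold change of 5.28 ± 0.90 did not pass the test (adjusted p = 0.183). At day 2, with 3.68 ± 3.72 and 1.33 ± 1.14 CPM, it was 1.46 ± 0.75 (adjusted p = 0.94 by edgeR). Mpo was thus higher with miR-125b in all 3 replicate pairs at all 4 samplings, and rose by the test in 2 of them. In fits to the 6 libraries of a comparison alone both calls ended, with an adjusted p by edgeR of 0.294 at day 10 and 0.0814 at day 13 labelled withdrawal.

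Replicate numbers paired the libraries by the check given under processing, so values with the replicate number as a block are given where they change a call. With that block, edgeR gave Mpo a log2 fold change of 5.40 ± 0.68 at day 13 labelled continued (adjusted p = 0.00447), which then passed. Without the block, the day 10 call of Mpo did not hold in every fit that left out a library. Its log2 fold change ran from 4.58 to 5.75 over those 6 fits, so the call moved and the direction did not. The adjusted p of Mpo there, by edgeR, ranged from 0.00522 to 0.1 when each of the 6 libraries was left out in turn. It rose above 0.05, so that the call was lost, without miR-125b replicate 3, control replicate 1 or control replicate 3. The Mpo call at day 13 labelled withdrawal was kept in 6 of 6 such fits (adjusted p of 0.017 to 0.0432). In bulk RNA, more cells that express Mpo and more Mpo RNA per cell cannot be told apart.

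**Figure D1:**
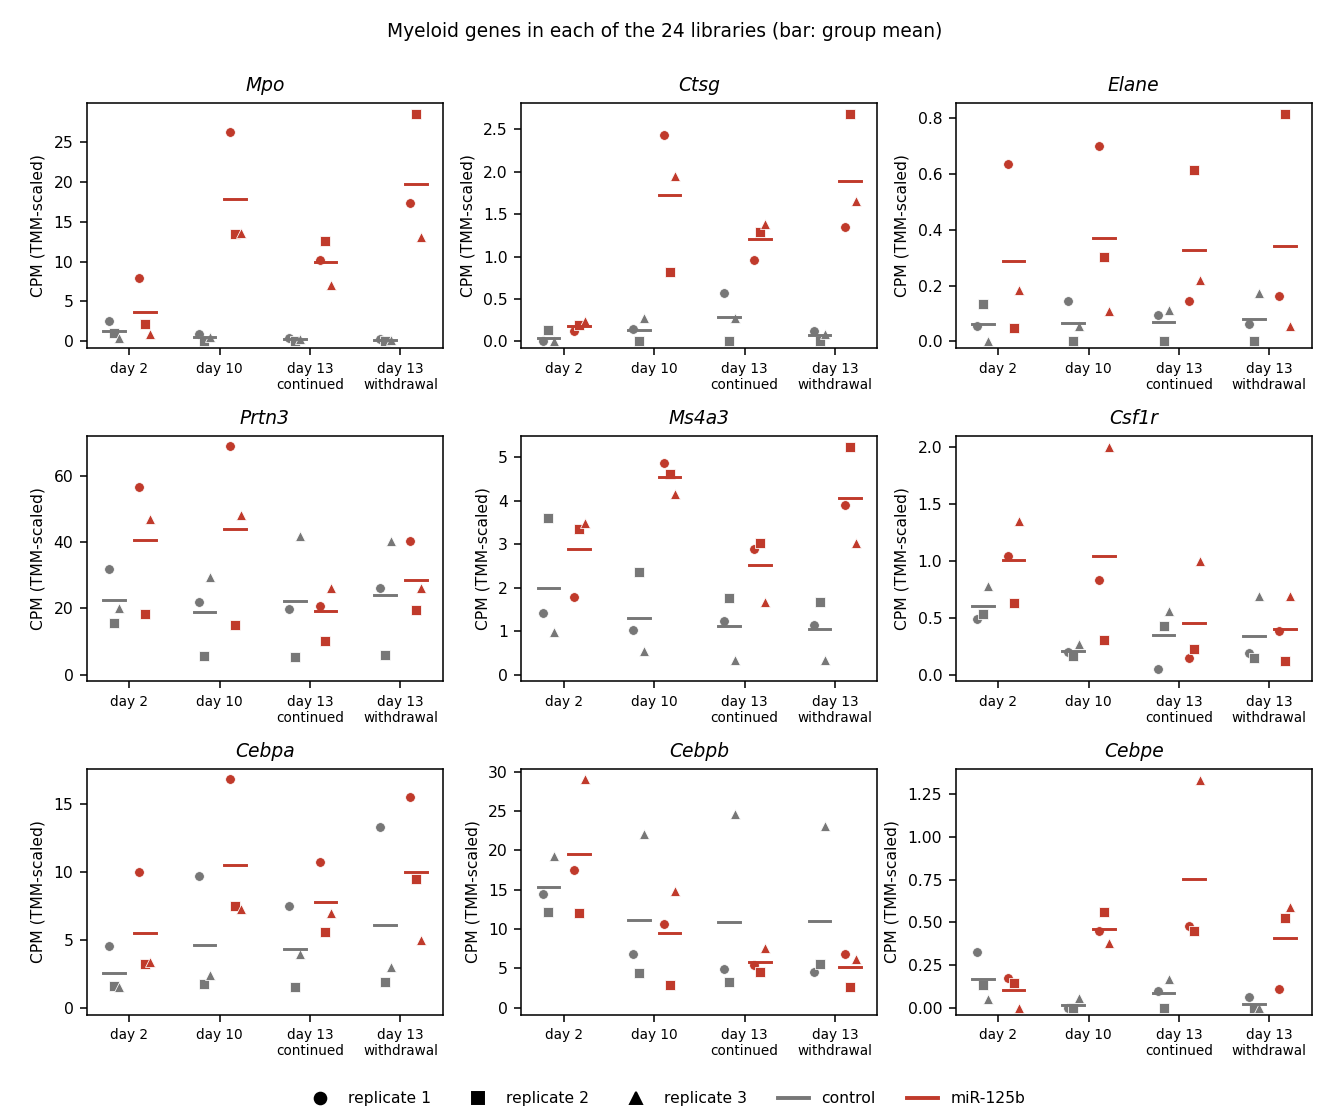
TMM-scaled CPM (y axis, a separate scale for each gene) of 9 genes in each of the 24 libraries, by sampling (x axis, day 13 as labelled); symbols are replicates 1 to 3, grey is control, red is miR-125b, and bars are group means. Mpo at day 10 lies between 13.5 and 26.3 CPM with miR-125b and between 0.0537 and 0.875 CPM in the control; Gfi1, with 1 count in all, is not drawn.

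Ctsg, on chromosome 14 at 56099881 to 56102574, minus strand, had few counts and followed the same order of arms as Mpo. The control libraries held 0, 2 and 0 counts at day 2, 3, 0 and 5 at day 10, 12, 0 and 5 at day 13 labelled continued, and 2, 0 and 2 at day 13 labelled withdrawal. With miR-125b the libraries held 2, 4 and 4, then 38, 16 and 36, then 20, 23 and 25, then 25, 46 and 31 counts. The arms overlapped at day 2 in CPM and did not overlap at the other 3 samplings. Summed over 3 libraries and scaled for library totals, Ctsg counts were 12 times higher with miR-125b at day 10 (exact 95% interval 5.86 to 28.7, covering counting error only) and 28.1 times higher at day 13 labelled withdrawal (10.6 to 105.0).

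By edgeR without the block, Ctsg did not pass at day 10 (log2 fold change 3.57 ± 0.86, adjusted p = 0.0522) or at day 13 labelled withdrawal (4.68 ± 0.94, adjusted p = 0.0593). With the replicate block it rose at both, by 3.55 ± 0.76 (adjusted p = 0.0082) and 4.74 ± 0.84 (adjusted p = 0.00777). For day 13 labelled continued the edgeR log2 fold change was 2.01 ± 0.79 (adjusted p = 0.999), where control replicate 1 held 12 counts. In that comparison it did not pass with the block either (adjusted p = 0.593). Of the 10 libraries in which Ctsg reached the filter's level of 0.542 CPM, 9 were miR-125b libraries, so that its place in the test depended on that arm.

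Elane, on chromosome 10 at 79886247 to 79888215, plus strand, was near the limit of detection. A count of 3, taken as the floor, corresponded to 0.129 to 0.2 CPM. Control libraries held 1, 2 and 0 counts at day 2, 3, 0 and 1 at day 10, 2, 0 and 2 at day 13 labelled continued, and 1, 0 and 4 at day 13 labelled withdrawal. Those with miR-125b held 11, 1 and 3, then 11, 6 and 2, then 3, 11 and 4, then 3, 14 and 1 counts. The arms overlapped at day 2, day 10 and day 13 labelled withdrawal, and were apart at day 13 labelled continued. Elane passed the filter through 4 miR-125b libraries and no control library, so that its place in the test depended on that arm. Summed and scaled, its day 10 counts were 5.08 times higher with miR-125b (exact 95% counting interval 1.69 to 20.5). Over the replicates edgeR gave Elane log2 fold changes of 1.96 to 2.30 at the 4 samplings, none of which passed with or without the block.

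Prtn3, the gene next to Elane (3.1 kb before it on chromosome 10, at 79874476 to 79883174, plus strand), was the most abundant member and did not follow Mpo. Control libraries held 584, 231 and 410 counts at day 2, 450, 103 and 543 at day 10, 412, 85 and 749 at day 13 labelled continued, and 412, 122 and 935 at day 13 labelled withdrawal. miR-125b libraries held 977, 379 and 767, then 1076, 291 and 891, then 432, 182 and 475, then 745, 336 and 488 counts. The arms overlapped at all 4 samplings, and replicate 2 was the lowest in CPM in 8 of 8 groups. The edgeR log2 fold change was 0.86 ± 0.77 at day 2, 1.21 ± 0.78 at day 10 (adjusted p = 0.461), -0.23 ± 0.78 at day 13 labelled continued and 0.25 ± 0.77 at day 13 labelled withdrawal. With the block, day 10 remained short of the threshold at 1.24 ± 0.41 (adjusted p = 0.0726 by edgeR).

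Within replicate pairs, Prtn3 was higher with miR-125b in 3 of 3 pairs at day 10, by factors of 3.14, 2.67 and 1.64. At day 13 the pairs did not share a direction: the factors were 1.05, 1.96 and 0.626 labelled continued and 1.54, 3.36 and 0.647 labelled withdrawal. Prtn3 overlaps Plppr3 on the opposite strand, and strand use in the counting is not given in the sources used here.

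Per kilobase of exon, a scale on which levels of different genes can be compared, the 10 genes covered a wide range. Averaged over the 24 libraries, Prtn3 stood at 15.9 CPM per kb, Cebpb at 7.34, Cebpa at 2.44, Mpo at 1.95, Ms4a3 at 1.29 and Ctsg at 0.672 CPM per kb. Elane and Cebpe each stood at 0.204 CPM per kb, Csf1r at 0.0952 and Gfi1 at 0.000757 CPM per kb. These averages join groups that differ. By group, Prtn3 stood 33.1 to 203 times above Elane, and above Mpo by 2.88 times (miR-125b, day 13 labelled withdrawal) to 289 times (control of the same sampling). Mpo exceeded Cebpa in 2 of 8 groups, the miR-125b arm at day 10 (5.20 against 4.0 CPM per kb) and at day 13 labelled withdrawal (5.73 against 3.79). In the miR-125b arm at day 13 labelled withdrawal Mpo reached 5.73 CPM per kb, against 16.5 for Prtn3, 1.84 for Ctsg and 0.35 for Elane.

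**Figure D2:**
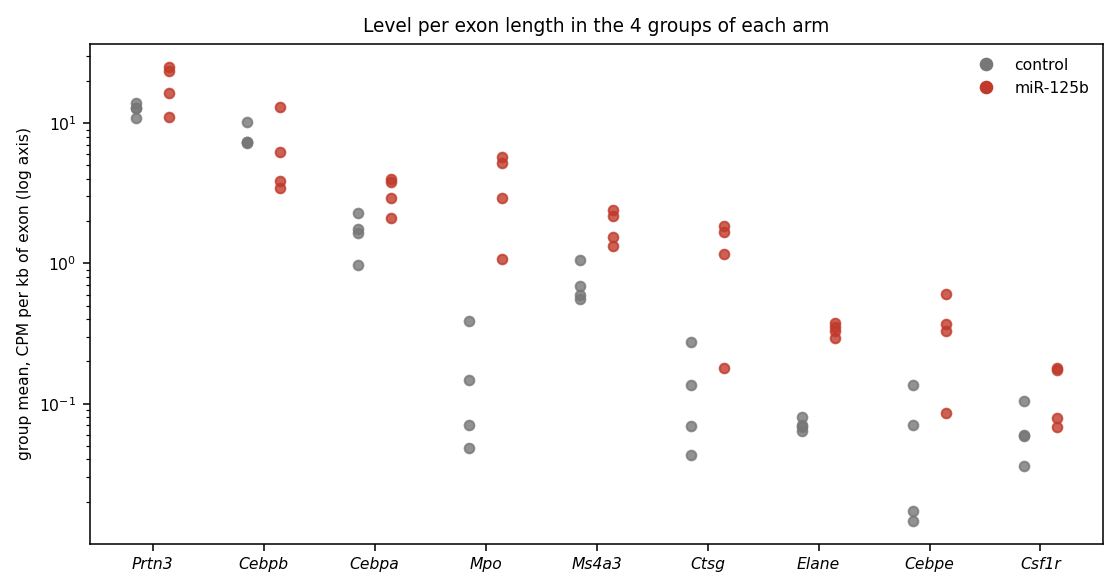
Group mean level in CPM per kb of exon (log y axis) of 9 genes (x axis), with 1 point for each of the 4 samplings in the control (grey) and miR-125b (red) arms. Prtn3 lies highest, between 10.9 and 25.3 CPM per kb over the 8 groups, and the Mpo groups span 0.0482 to 5.73 CPM per kb.

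Ms4a3, on chromosome 19 at 11629496 to 11640851, minus strand, had more counts, and its arms were apart at 2 of the 4 samplings. Control libraries held 26, 54 and 20 counts at day 2, 21, 44 and 10 at day 10, 26, 29 and 6 at day 13 labelled continued, and 18, 35 and 8 at day 13 labelled withdrawal. In the miR-125b arm there were 31, 69 and 57, then 76, 91 and 77, then 60, 54 and 30, then 72, 90 and 57 counts. The arms did not overlap in CPM at day 10 or at day 13 labelled withdrawal, and overlapped at day 2 and at day 13 labelled continued. Control replicate 3 was the lowest and control replicate 2 the highest of their group at each of the 4 samplings.

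Ms4a3 averaged 4.54 ± 0.353 CPM with miR-125b and 1.31 ± 0.943 CPM in the control at day 10. The edgeR log2 fold change of 1.79 ± 0.60 did not pass (adjusted p = 0.127), and with the replicate block it was 1.96 ± 0.41 and passed (adjusted p = 0.00701). The means at day 13 labelled withdrawal were 4.06 ± 1.11 and 1.05 ± 0.668 CPM. The edgeR log2 fold change there was 1.95 ± 0.61 (adjusted p = 0.301), and 2.05 ± 0.42 with the block, which passed (adjusted p = 0.0147).

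Cebpa, on chromosome 7 at 35119293 to 35121928, plus strand, was higher with miR-125b in 3 of 3 replicate pairs at each sampling, while replicate 1 stood above the others in both arms. Control libraries held 84, 24 and 32 counts at day 2, 200, 32 and 44 at day 10, 156, 25 and 71 at day 13 labelled continued, and 209, 40 and 69 at day 13 labelled withdrawal. The other arm held 173, 66 and 55, then 263, 148 and 135, then 224, 100 and 126, then 286, 162 and 94 counts. Arms overlapped at all 4 samplings, and replicate 1 was the highest in 8 of 8 groups. The pair factors ran from 2.01 to 2.20 at day 2 and from 1.16 to 4.94 over all 4 samplings. By edgeR without the block the day 10 log2 fold change was 1.19 ± 0.79 (adjusted p = 0.478). With the block it was 1.41 ± 0.33 and passed (adjusted p = 0.0157), and the blocked value at day 13 labelled withdrawal, 1.04 ± 0.33, did not (adjusted p = 0.116).

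Cebpb, on chromosome 2 at 167688915 to 167690418, plus strand, was the one tested member with a negative fold change at 3 of the 4 samplings. Control libraries held 268, 182 and 395 counts at day 2, 140, 83 and 407 at day 10, 103, 54 and 440 at day 13 labelled continued, and 71, 116 and 536 at day 13 labelled withdrawal. Counts with miR-125b were 302, 247 and 473, then 166, 57 and 274, then 113, 81 and 137, then 126, 44 and 116 counts. Overlap of the arms was seen at all 4 samplings, and control replicate 3 stood far above the other control libraries at the 3 later ones. The edgeR log2 fold change went from 0.34 ± 0.78 at day 2 to -1.09 ± 0.80 at day 13 labelled withdrawal (adjusted p = 0.752), and passed nowhere, with or without the block. Without control replicate 3 the sign turned, to 0.74 at day 10, 0.5 at day 13 labelled continued and 0.046 at day 13 labelled withdrawal.

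Cebpe, on chromosome 14 at 54710360 to 54712174, minus strand, had at most 24 counts in any library. Control libraries held 6, 2 and 1 counts at day 2, 0, 0 and 1 at day 10, 2, 0 and 3 at day 13 labelled continued, and 1, 0 and 0 at day 13 labelled withdrawal. The miR-125b libraries held 3, 3 and 0, then 7, 11 and 7, then 10, 8 and 24, then 2, 9 and 11 counts. The arms overlapped at day 2 and did not overlap in CPM at the 3 later samplings. Summed over the 3 libraries, the ratio of scaled counts at day 10 was 26.8, with an exact 95% counting interval of 4.38 to 1100.0 that reflects the single control count. It was 8.15 (3.23 to 26.4) at day 13 labelled continued, and at day 13 labelled withdrawal 24.2 (3.92 to 1000).

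The edgeR fold changes of Cebpe depend on the prior count the method adds. At day 10 the value was 4.28 ± 1.15 (adjusted p = 0.0751), and with the block 4.30 ± 1.15, which passed (adjusted p = 0.0265). Neither fit passed at day 13 labelled withdrawal (adjusted p = 0.218, and 0.0766 with the block). Cebpe entered the test through 3 miR-125b libraries and no control library, so that its place in the test depended on that arm too. Per kilobase of exon, Cebpa stood above Cebpe in 8 of 8 groups, by 4.87 to 135.0 times. Cebpb stood above Cebpa in 7 of 8, by up to 10.4 times in the control at day 2, and in the miR-125b arm at day 13 labelled withdrawal it did not (3.45 against 3.79 CPM per kb).

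Gfi1, on chromosome 5 at 107716657 to 107726036, minus strand, had 1 count in all 24 libraries together, in miR-125b replicate 1 at day 2. It did not reach the filter and was not tested, and 0 counts in a library allow up to 3 counts, or 0.129 to 0.2 CPM. Its paralog Gfi1b, a repressor of the erythroid and megakaryocyte lines that was named after its values were seen, had 1405 to 2443 counts per library, a mean of 98.6 CPM. It showed an edgeR log2 fold change of -0.21 ± 0.10 at day 10 (adjusted p = 0.28).

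Csf1r, the monocyte and macrophage receptor, was low in all groups. Control libraries held 9, 8 and 16 counts at day 2, 4, 3 and 5 at day 10, 1, 7 and 10 at day 13 labelled continued, and 3, 3 and 16 at day 13 labelled withdrawal. With miR-125b the libraries held 18, 13 and 22, then 13, 6 and 37, then 3, 4 and 18, then 7, 2 and 13 counts. The arms were apart at day 10, where the lowest miR-125b library had 0.304 CPM and the highest control 0.271 CPM, and overlapped at the other samplings. Replicate 3 was the highest in 8 of 8 groups. The edgeR log2 fold change at day 10 was 2.29 ± 0.85 (adjusted p = 0.162), and with the block 2.13 ± 0.59, which passed (adjusted p = 0.0295). At day 13 the Csf1r value was 0.41 ± 0.85 labelled continued and 0.18 ± 0.84 labelled withdrawal, and its direction turned when single libraries were left out.

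Read as a list, the 9 tested members shared a direction more often than they passed the test. By edgeR without the block, 8 of 9 had a positive log2 fold change at day 2, beside 6827 of the 13419 tested genes. It was 8 of 9 at day 10, beside 6787 genes. For day 13 it was 7 of 9 labelled continued, beside 6195, and 8 of 9 labelled withdrawal, beside 6396. Elane, Cebpe and Ctsg entered the test mainly through miR-125b libraries, so these counts of direction describe the tested members only. Counted at an adjusted p under 0.05, none of the 9 changed at day 2, with or without the block, beside 0.0% of the 13419 tested genes that rose. At an unadjusted p under 0.05, edgeR had 0 of the 9 at day 2 without the block and 2 with it (Mpo and Cebpa), and DESeq2 had 1 (Mpo) and called none after adjustment. Here and below, counts at an unadjusted p or by DESeq2 have no share of all genes beside them, so they are no result about the members. At day 10, 1 of 9 rose without the block (Mpo), beside 0.455% of all tested genes that rose, and none fell. With the block 6 of 9 rose (Mpo, Ctsg, Ms4a3, Cebpa, Cebpe and Csf1r), beside 4.74% of all tested genes. In day 13 labelled continued none of 9 rose without the block, beside 0.0% of all genes, and 1 of 9 with it (Mpo), beside 0.0149%. There Mpo, Ctsg and Cebpe, 3 of 9, had an unadjusted p under 0.05 by edgeR without the block, and DESeq2 called 1 after adjustment (Mpo). In day 13 labelled withdrawal 1 of 9 rose without the block (Mpo), beside 0.0447% of all genes, and 3 of 9 with it (Mpo, Ctsg and Ms4a3), beside 0.768%.

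The arms did not overlap, with miR-125b higher, for none of the 9 tested members at day 2, beside 6.09% of all tested genes. They did not overlap for 5 of 9 at day 10 (Mpo, Ctsg, Ms4a3, Cebpe and Csf1r), beside 9.14%. There were 4 of 9 at day 13 labelled continued (Mpo, Elane, Ctsg and Cebpe), beside 4.4%, and at day 13 labelled withdrawal 4 of 9 (Mpo, Ctsg, Ms4a3 and Cebpe), beside 5.77%. The median log2 fold change of the 9 was 0.86, 2.29, 1.17 and 1.95 at the 4 samplings in that order, beside 0.004, 0.004, -0.016 and -0.012 over all tested genes. Elane and Cebpe reached the filter's level only in miR-125b libraries, and Ctsg in 9 of them and 1 control library. These counts and medians therefore describe the tested members and support nothing further. All 4 comparisons use separate control libraries, but Mpo, Ctsg and the other members share each library. Libraries with the same replicate number also deviated together across groups, so the 4 samplings are not independent of each other.

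**Figure D3:**
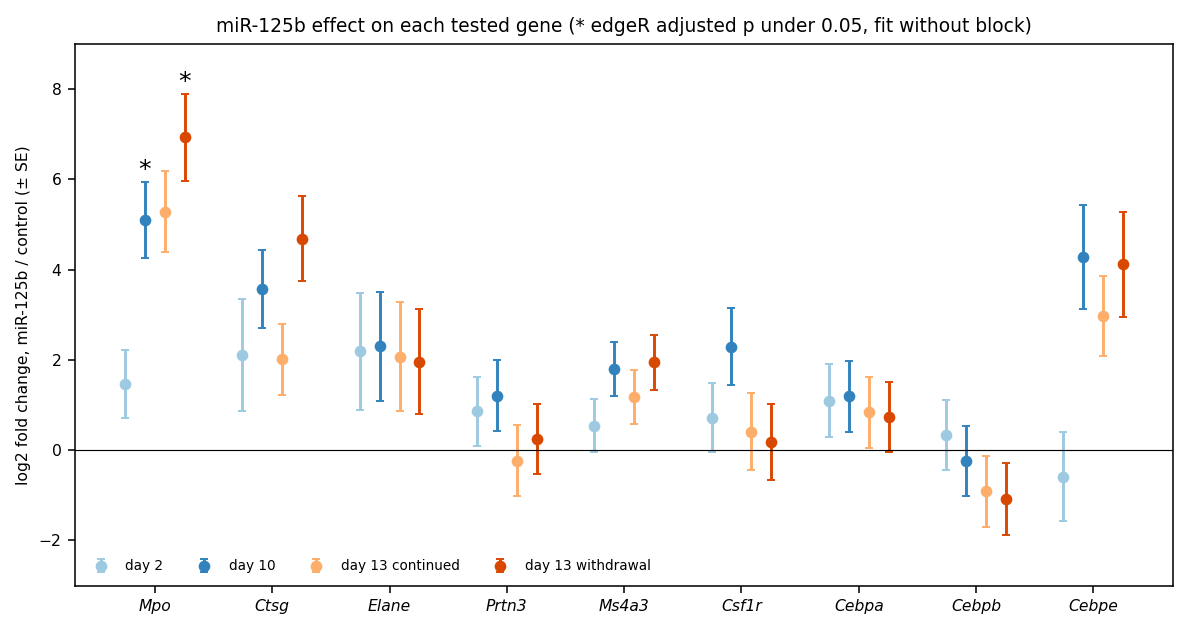
edgeR log2 fold change of miR-125b over control (y axis, bars are SE) for the 9 tested genes (x axis) at day 2, day 10 and the 2 samplings of day 13 as labelled, from the fit without the replicate block. Stars mark the 2 values with an adjusted p under 0.05, both of Mpo, at 5.10 and 6.93.

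Within each arm the members were also compared over time. In the miR-125b arm Mpo went from 3.68 ± 3.72 CPM at day 2 to 17.8 ± 7.37 CPM at day 10, and Ctsg from 0.185 ± 0.0652 to 1.73 ± 0.83 CPM. In the control arm Mpo went from 1.33 ± 1.14 to 0.508 ± 0.418 CPM over the same days. By edgeR without the block none of the 9 members changed between day 2 and day 10 in the miR-125b arm, where 0.134% of all genes rose. By edgeR's unadjusted p, 3 were under 0.05 (Mpo, Ctsg and Cebpe), and DESeq2 called 2 after adjustment (Mpo and Ctsg). As above, such counts have no share of all genes beside them. With the block 2 of 9 rose, beside 2.01% of all genes: Mpo by 2.47 ± 0.48 (adjusted p = 0.0131) and Ctsg by 3.12 ± 0.73 (adjusted p = 0.0246). Mpo, Ctsg, Ms4a3 and Cebpe, 4 of 9, were higher at day 10 without overlap, beside 8.99% of all genes.

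In the control arm no member changed between day 2 and day 10 in either edgeR fit, beside 0.0% of all genes without the block and 0.149% with it. Csf1r was the only member whose control libraries were lower at day 10 without overlap, beside 6.86% of all genes. By edgeR's unadjusted p, 1 member was under 0.05 without the block (Cebpe) and 2 with it (Cebpe and Csf1r), and DESeq2 called none. The difference of the miR-125b effect between day 10 and day 2 was 3.63 ± 1.09 on the log2 scale for Mpo and did not pass (adjusted p = 0.69 by edgeR, and 0.303 with the block). No gene of the 13419 passed that interaction in either fit (0.0% and 0.0%). At an unadjusted p under 0.05 there were 2 members by edgeR without the block (Mpo and Cebpe) and 3 with it (Mpo, Ms4a3 and Cebpe), and DESeq2 called no member. The larger Mpo effect at day 10 than at day 2 is therefore not shown by the test of the difference.

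From day 10 to day 13 labelled continued, none of the 9 members changed in the miR-125b arm by edgeR, beside 3.53% of all tested genes without the block and 13.4% with it. The edgeR log2 difference was -0.84 ± 0.69 for Mpo (adjusted p = 0.529) and -0.85 ± 0.58 for Ms4a3 (adjusted p = 0.432). By unadjusted p, 0 members were under 0.05 without the block and 3 with it (Prtn3, Ms4a3 and Csf1r), and DESeq2 called none. Mpo and Ms4a3 were the 2 members with lower libraries at day 13 without overlap, beside 12.7% of all genes. In the control arm no member changed, beside 0.0224% of all genes without the block and 0.0373% with it, and 0 had an unadjusted p under 0.05 in either edgeR fit or by DESeq2.

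Between the day 13 libraries labelled withdrawal and those labelled continued, Mpo stood at 19.6 ± 7.94 and 9.95 ± 2.76 CPM in the miR-125b arm and did not overlap. Ms4a3, at 4.06 ± 1.11 and 2.52 ± 0.749 CPM, did not overlap either, so that 2 of 9 members were higher in the libraries labelled withdrawal, beside 4.57% of all genes. Neither passed the edgeR test, with log2 differences of 0.98 ± 0.69 for Mpo and 0.69 ± 0.58 for Ms4a3. No member was called in that comparison, beside 0.0% of all genes without the block and 0.0522% with it. By unadjusted p, 0 members were under 0.05 without the block and 1 with it (Mpo). In the control arm none was called either, beside 0.0% and 0.00745%, and 0 were under an unadjusted 0.05 by edgeR, against 1 by DESeq2 (Ctsg). The difference in the miR-125b effect between the libraries labelled withdrawal and continued was 1.65 ± 1.34 for Mpo (adjusted p = 1.0 by edgeR) and passed for none of the 13419 genes in either fit (0.0% and 0.0%). Ctsg alone, 1 of 9, had an unadjusted p under 0.05 there, in both edgeR fits and by DESeq2, which called no member.

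By level, the 8 groups of Mpo ran from miR-125b at day 13 labelled withdrawal (19.6 CPM) and day 10 (17.8 CPM), through day 13 labelled continued (9.95 CPM) and day 2 (3.68 CPM), to the control at day 2 (1.33 CPM), day 10 (0.508 CPM), day 13 labelled continued (0.241 CPM) and labelled withdrawal (0.165 CPM). In that order the day 10 group lay above its next neighbour without overlap, and all other neighbours overlapped. For Ctsg the single gap lay between miR-125b at day 13 labelled continued (1.21 CPM) and the control at the same sampling (0.284 CPM). For Elane, Prtn3, Ms4a3, Cebpa, Cebpb, Cebpe and Csf1r every neighbour in the order of group means overlapped with the next.

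A further list of granule-related genes did not pass the test. Chosen for the handling of granule proteases or for primary granules, it had 11 of 12 genes tested, with 0 called in the 4 edgeR comparisons in either fit. Some of its genes were near the floor: Bpi had at most 3 counts in any library and was not tested, and Prss57 averaged 0.744 CPM. Its 3 most abundant genes were Plac8 (661 CPM on average), Cd63 (567 CPM) and Srgn (345 CPM), the proteoglycan that packs granule proteases. Their log2 fold changes at day 10 were 0.02 ± 0.30, -0.42 ± 0.31 and 0.18 ± 0.13 (edgeR, adjusted p of 0.983, 0.539 and 0.54). The median log2 fold change of the list was 0.26 at day 10 and -0.03 at day 13 labelled withdrawal.

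Secondary and tertiary granule genes, which follow in neutrophil maturation, were near 0. Their 12 genes together took 0.245 to 7.01 CPM per library, and 3 of 12 reached the filter. The most abundant were Mmp8 (0.733 CPM), S100a9 (0.408 CPM) and Mmp9 (0.288 CPM), and Ltf, the gene of lactoferrin, had at most 12 counts. Cd177, Fcnb, Chil3 and Retnlg had at most 3 counts in any library. No gene of the list was called in a miR-125b comparison by edgeR in either fit. S100a9, a calcium-binding protein of neutrophils and monocytes, held 8, 4 and 23 counts with miR-125b and 0 in the 3 control libraries at day 13 labelled continued, at least 11.3-fold higher against a floor of 3 counts over the group. At day 13 labelled withdrawal it held 3, 1 and 6 counts against 0 (at least 3.67-fold higher), and at day 10 there were 1, 0 and 0 against 1, 0 and 6. The arms overlapped at day 2, where S100a9 held 23, 26 and 16 counts with miR-125b and 25, 14 and 22 in the control. Both arms thus held S100a9 at day 2 and stood near 0 at day 10. Neither day 13 difference passed edgeR's test (adjusted p of 0.795 and 0.357). The median log2 fold change of the 3 tested genes was -0.52 at day 2, -2.34 at day 10, 3.54 at day 13 labelled continued and 4.81 labelled withdrawal. With genes at 0 in a whole arm set to their bound, the last 3 medians were -0.90, 3.50 and 1.88. The 3 genes were Mmp8, S100a8 and S100a9. Mmp8 alone stood at -0.52, 0.11, 1.82 and 0.62 at the 4 samplings in order. The fitted day 13 medians are thus values of S100a8 and S100a9, and describe no rise of the secondary granule genes as a class.

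Of 16 other myeloid transcription factors and cytokine receptors, 12 were tested and 0 were called in the 4 comparisons in either edgeR fit. Csf2rb, the shared chain of the GM-CSF, IL-3 and IL-5 receptors, was the most abundant at 211 CPM, followed by Runx1 at 158 CPM and Myb at 136 CPM. Their day 10 log2 fold changes were 0.03 ± 0.26, 0.23 ± 0.39 and -0.21 ± 0.21 (edgeR, adjusted p of 0.978, 0.832 and 0.67). Csf3r, the G-CSF receptor of neutrophils, which was named after its values were seen, had 0 to 5 counts per library. The median log2 fold change of the list was 0.04 at day 10 and -0.18 at day 13 labelled withdrawal.

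Markers of other blood cells were set beside the members. The 12 mast cell and basophil markers, all tested, summed to 402 to 1160 CPM with miR-125b and 506 to 1460 CPM in the control at day 10, and to 324 to 1040 and 392 to 1300 CPM at day 13 labelled withdrawal. Gata2 alone took 268 to 1050 CPM, so these sums mostly follow that gene. None of the 12 was called without the block. In the blocked fit 9, 5, 5 and 6 of the 12 had a positive log2 fold change at the 4 samplings in order. The list medians were 0.99, -0.05, -0.08 and 0.09, so the list as a whole did not rise at day 10 or day 13. With the block Mcpt8, a basophil granule protease, rose at day 10 by 3.87 ± 0.78 (adjusted p = 0.00692 by edgeR), and Prss34, another basophil protease, by 4.52 (adjusted p = 0.00174). The blocked edgeR values at day 13 labelled withdrawal were 4.91 for Mcpt8 (adjusted p = 0.00829) and 5.19 for Prss34 (adjusted p = 0.00141). Prss34 at day 13 labelled continued rose by 4.74 (adjusted p = 0.0171 by edgeR with the block). These calls were 2, 1 and 2 of 12 at day 10, day 13 labelled continued and day 13 labelled withdrawal. Beside them, 4.74%, 0.0149% and 0.768% of all tested genes rose. Mcpt8 lies 14.6 kb from Ctsg on chromosome 14. Cpa3, a mast cell carboxypeptidase, overlapped between the arms at day 10 (15.6 to 143 CPM against 36.5 to 232 CPM).

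The 12 monocyte and macrophage markers summed to 24.8 to 41.0 CPM with miR-125b and 16.1 to 28.9 CPM in the control at day 10; 7 were tested and 0 were called in either edgeR fit. Of 10 eosinophil markers 2 were tested and 0 called, with Ear1 and Ear2 at 0 in all libraries. Of 14 megakaryocyte markers, all tested, none was called without the block. With the block Gp1bb and Gp9 fell and Ppbp rose at day 10, where 3.89% of all genes fell, and Gp1ba, Gp1bb, Gp5, Gp9 and Treml1 fell at day 13 labelled withdrawal, where 1.09% fell. Of 10 erythroid markers, 9 were tested; with the block Hba-a1 fell at day 13 labelled withdrawal. Lymphoid markers (2 of 8 tested) and hepatocyte or stromal markers (3 of 8 tested) had 0 called. What these cell types contribute to the differences in Mpo and Ctsg was not tested.

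The 8 genes whose pattern was most like that of Mpo were sought among 11551 tested genes with a mean of at least 1 CPM, by Pearson's r of log2(CPM + 0.5) over the 24 libraries. They included Mcpt8 (r = 0.874), Prss34 (0.865), Erg (0.829), Rhobtb3 (0.819), Dach1 (0.806), Fgd1 (0.78) and Cbx6 (0.773). The 24 points share arms, days and replicate numbers, so these r are a description. Of those named, Cbx6 passed the edgeR test without the block at day 10 (log2 fold change 1.08, adjusted p = 0.0262). Among the members, r with Mpo was 0.86 for Ctsg, 0.77 for Cebpe, 0.71 for Ms4a3, 0.69 for Elane, 0.68 for Cebpa, 0.38 for Prtn3, 0.21 for Csf1r and -0.25 for Cebpb. Ctsg, Csf1r, Cebpe and Elane lie below a mean of 1 CPM, where counts are sparse, and a weak r there is no finding.

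**Figure D4:**
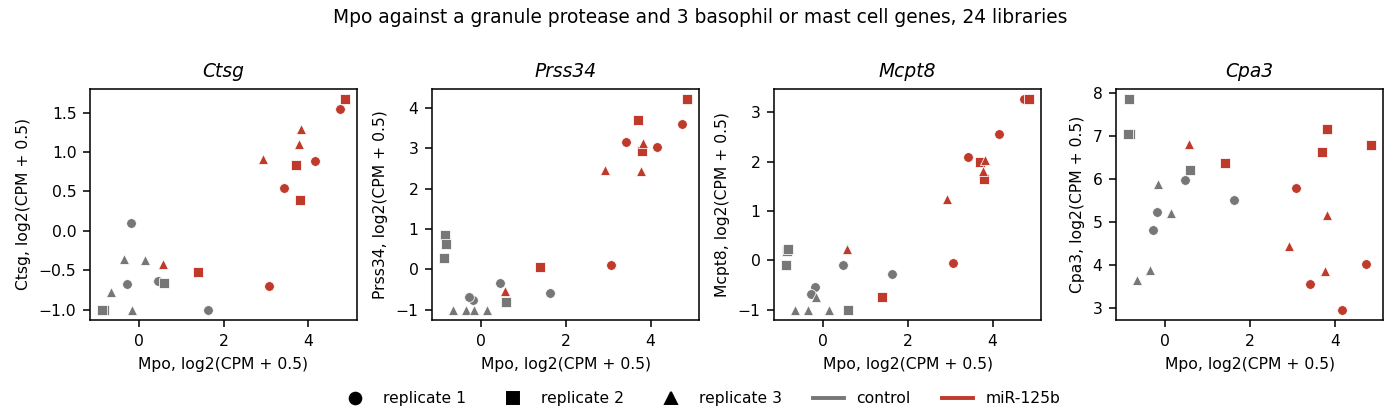
Level of Ctsg, Prss34, Mcpt8 and Cpa3 (y axes) against that of Mpo (x axis), all as log2(CPM + 0.5), in 24 libraries; symbols are replicates 1 to 3, grey is control, red is miR-125b. Ctsg, Prss34 and Mcpt8 lie along the Mpo axis (r of 0.86, 0.865 and 0.874), with the miR-125b libraries of day 10 and day 13 at the upper right, and Cpa3 does not.

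Several members overlap another gene on the opposite strand, which matters where the counting did not use strand. Mpo overlaps Gm11505, Cebpa Gm45091, Cebpb Tmem189, Gfi1 A430072P03Rik and Csf1r Hmgxb3, beside Prtn3 with Plppr3. Elane, Ctsg, Ms4a3 and Cebpe overlap no annotated gene. Runs of 50 bases shared with another gene were found in Mpo alone, for 8 of its 3508 such runs (0.228%), and in none of the other 9 genes. Elane ends 38.8 kb before Arid3a starts on chromosome 10.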

How the data were processed

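RNA of 24 libraries was sequenced from total RNA by standard Illumina protocols, per the labels. For each library, unpooled, the deposited table gives read counts as whole numbers by Ensembl gene. The submitters' processing notes name fastp, HISAT2 2.0.5, featureCounts and the build mm10; the annotation release and strand setting are not given in the sources used here. All count columns were matched to libraries by the labels' descriptions, with 0 unmatched. Names and positions came from GENCODE M21 (GRCm38), which named 46488 of 47069 identifiers; unnamed ones held at most 0.0638% of a library's counts.

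edgeR 4.0.16 in R 4.3.3 fitted one quasi-likelihood model (filterByExpr, TMM, robust) with 8 group coefficients to all 24 libraries, leaving 13419 genes and 16 residual degrees of freedom. In all, 12 contrasts were tested (two-sided), adjusted by Benjamini-Hochberg over those genes, with a threshold of 0.05. SE were derived from the F statistic. The scripts were tested on simulated data.

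Replicate numbers 1 to 3 come from the labels, which do not say what they share. Deviations from group means correlated at over 0.1 in 84 of 84 same-numbered pairs (0.163 to 0.781, median 0.475; other pairs, median -0.304), so the numbers pair the libraries. The common dispersion was 0.0591 without the replicate block and 0.0169 with it. Alternatives were RLE scaling, no filter, DESeq2 1.42.0, a newer quasi-likelihood estimate, only the compared groups, the block, and leaving out each replicate. Intervals of summed counts are exact and cover counting error only.

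The members and gene lists were chosen with earlier results of these data known. The text names all 10 members; from each list, genes that passed in a miR-125b comparison (up to 4 by lowest p) or else up to 3 of the highest mean CPM; and the 8 genes most correlated with Mpo. Of these, 2 genes are not reported here. Further list genes named in the text were chosen after their values were seen.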

Additional observations from a re-analysis of the deposited data

How the results depend on the processing

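The number of members called by edgeR depended on the fit. At day 10 it was 1 as reported, 3 with DESeq2, 2 with the newer quasi-likelihood estimate, 6 with the replicate block, 0 when only the groups compared were fitted, and 0 to 2 when each library was left out. At day 13 labelled continued it was 0, and 1 each with DESeq2, the newer estimate and the replicate block. At day 13 labelled withdrawal it was 1, 2 each with no filter, DESeq2 and the newer estimate, 3 with the replicate block, and 0 with only the groups compared. For day 10 against day 2 in the miR-125b arm it was 0, 2 each with DESeq2, the newer estimate and the replicate block, and 0 to 1 when each library was left out. The other 8 counts were 0 and did not move under any alternative, the replicate block included. The cause of these moves was not tested, beyond the fewer libraries in some fits. The share of all genes that rose at day 10 also differed by fit, 0.455% without the block and 4.74% with it. For the other alternatives that share is not given, so their counts are no result about the members. RLE scaling changed no call.

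Directions that turned did so when single libraries were left out, and none of those values passed the test. Over those fits the log2 fold change of Cebpb ran from -0.057 to 0.6 at day 2, -0.73 to 0.74 at day 10, -1.33 to 0.5 at day 13 labelled continued and -1.46 to 0.046 at day 13 labelled withdrawal. That of Cebpe ran from -1.06 to 0.31 at day 2. That of Prtn3 ran from -0.69 to 0.6 and from -0.22 to 0.85 at the 2 samplings of day 13, and that of Csf1r from -0.87 to 0.97 and from -0.48 to 1.24. With only the groups compared, 22 of 36 single-gene values kept their call, 2 lost it (Mpo at day 10 and at day 13 labelled withdrawal), and the others had no value because the gene did not pass the filter there. Elane, Ctsg, Cebpe and Csf1r rest on counts under 50 per library, which limits their precision.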
